A study of Mus musculus with 6 samples.

Results

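ATP-binding cassette (ABC) transporters and the efflux of drugs and lipids were examined in mouse embryonic stem (ES) cells with and without Dppa4. The genes were Abcb1a, Abcb1b, Abcg2, Abcc1, Abcc4, Abcc5, Abca1 and Abca3, 8 of the 18193 genes measured. Every probe set that the platform annotation assigns to exactly one of these symbols was taken, which gave 24 of 45037 probe sets. No probe set shared by several genes carried one of the 8 symbols. The set was selected on the knockout minus parental differences of these same arrays, in which Abcb1a had one of the larger falls, so all values of this comparison are given as a description and support nothing beyond themselves.

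Total RNA was hybridised to Affymetrix arrays for 2 cell lines with 3 arrays each. The parental line, CI#84.2, is hemizygous for Dppa4, a gene of a chromatin-associated protein of pluripotent cells, and the knockout line, CI#243.12, lacks a functional copy by its label. Both lines were cultured on mouse embryonic fibroblast feeders, so every array holds RNA of ES cells and of feeders. Each group is 1 cell line, and any difference between the lines other than Dppa4 cannot be told apart from it. Less RNA per cell and fewer cells expressing a gene cannot be told apart in such bulk samples.

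ABC transporters bind and hydrolyse ATP to move substrates across membranes. Abcb1a and Abcb1b together encode the mouse P-glycoproteins, the multidrug efflux pumps that in humans come from a single gene, and Abcg2 encodes the breast cancer resistance protein, the pump behind the dye-excluding side population of stem cells. Abcc1, Abcc4 and Abcc5 encode multidrug resistance proteins that export organic anions, glutathione conjugates or cyclic nucleotides, while Abca1 exports cholesterol to apolipoproteins and Abca3 loads lipid into lamellar bodies of the lung.

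The upstream sequences of the paired P-glycoprotein genes are shown because Abcb1a was the member that passed the test and Abcb1b is its neighbour and closest relative. Both lie on chromosome 5 on the plus strand, and the 250 bases before each gene start are given 5′ to 3′ (RefSeq, GRCm38.p6), at chr5:8566841-8567090 for Abcb1a and chr5:8797897-8798146 for Abcb1b. Capitals mark matches on either strand to CCAAT, the box bound by NF-Y, and to GGGCGG, the GC box bound by Sp1 family factors; CACGTG, the E-box, was searched too, and no match overlaps another in these windows.
Abcb1a: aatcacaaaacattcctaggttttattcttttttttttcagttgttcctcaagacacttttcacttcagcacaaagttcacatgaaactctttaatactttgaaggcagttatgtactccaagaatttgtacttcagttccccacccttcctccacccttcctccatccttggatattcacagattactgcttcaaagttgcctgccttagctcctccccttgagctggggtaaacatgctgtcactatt
Abcb1b: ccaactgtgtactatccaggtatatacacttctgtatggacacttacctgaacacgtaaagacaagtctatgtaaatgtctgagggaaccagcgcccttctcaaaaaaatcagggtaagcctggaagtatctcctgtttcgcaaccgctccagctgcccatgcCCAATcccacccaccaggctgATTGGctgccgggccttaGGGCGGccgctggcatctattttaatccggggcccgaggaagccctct
The Abcb1a window holds 0 CpG dinucleotides and none of the 3 motifs, at a GC content of 40.4%. The Abcb1a start used here lies within the span of the neighbouring gene Rundc3b. Other possible transcript starts of Abcb1a were not examined, so this window need not be its main promoter. The Abcb1b window holds 9 CpG dinucleotides at 52.8% GC, with CCAAT boxes starting 87 and 66 bases and a GC box 48 bases before the gene start. Over 32851 windows of the same length the median was 6 CpG, and 7.9% had 0. Of all these windows, 33.8% hold CCAAT, 32.7% GGGCGG and 6.02% CACGTG. A match of letters is a description of the window and shows no binding. Of the 8 members, 7 matched the promoter table. The single windows of Abcc5, Abca1 and Abca3 held 17, 20 and 21 CpG, the 3 windows of Abcg2 held 3, 10 and 23, and the pair of Abcc4 held 4 and 35.

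Abcb1a was clearly lower in knockout cells on both of its probe sets. On 1419759_at the parental arrays read 7.61, 7.67 and 7.65 and the knockout arrays 5.75, 5.71 and 5.41, as robust multi-array average (RMA) values on the log2 scale. The lowest parental array lay well above the highest knockout array. The means were 7.64 ± 0.03 and 5.62 ± 0.19 (SD, n = 3), a difference of -2.02 (SE 0.10), so that 24.7% of the parental signal remained. On 1419758_at the parental values were 6.24, 6.54 and 6.76 and the knockout values 4.70, 4.68 and 4.78. Here too the groups were far apart, with the parental arrays more spread than the knockout arrays. The difference was -1.79 (SE 0.13), or 28.9% of the parental signal. All 6 arrays of both probe sets stayed above the background level of 3.78, taken from olfactory and vomeronasal receptor probe sets, so the transcript was reduced rather than at background. Only 18 of the 45037 probe sets were lower by as much as 1419759_at or more, itself included.

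Abcb1b, the other P-glycoprotein gene, was lower to a smaller extent. Its probe set 1418872_at gave 8.10, 7.83 and 7.99 in parental and 7.54, 7.19 and 6.98 in knockout cells. Each knockout array was below each parental array, and the knockout arrays were spread over more than the parental ones. The means were 7.97 ± 0.14 and 7.24 ± 0.28 (SD, n = 3), and the difference was -0.74 (SE 0.14), with 60.0% of the parental signal remaining. This difference did not pass the threshold of 0.05 in the fit over all probe sets (adjusted p = 0.101, limma). It passed with an intensity trend and robust prior (0.0421), within a range of 0.0421 to 0.609 over 12 alternatives. The second Abcb1b probe set, 1446701_at, lay at or below background on all 6 arrays (3.03 to 3.28) and gives no usable reading of the gene. Within each array, 1419759_at of Abcb1a minus 1418872_at of Abcb1b was -0.49, -0.16 and -0.34 in parental cells and -1.79, -1.48 and -1.57 in knockout cells. The gap widened on each knockout array because the Abcb1a signal was lower by more than the Abcb1b signal; as levels of different probe sets, the gaps do not rank the genes.

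**Figure D1:**
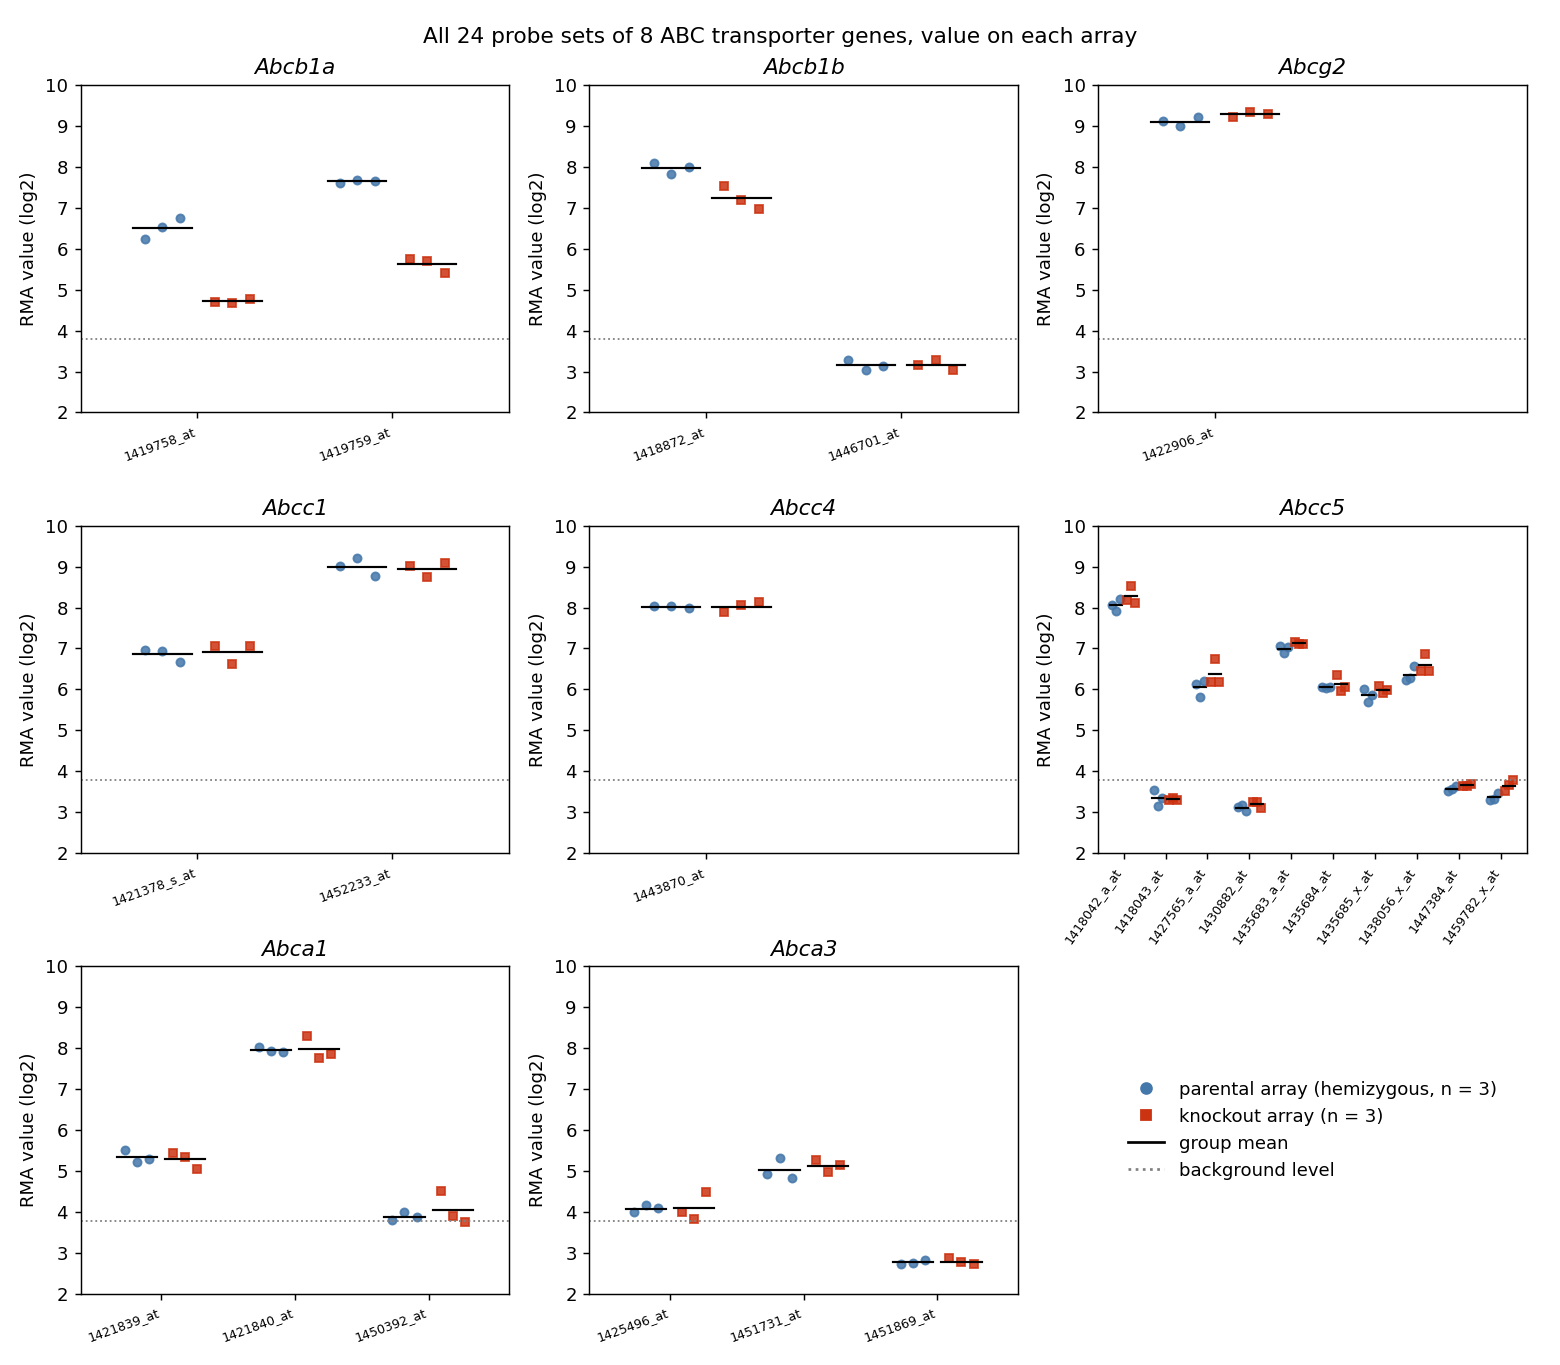
RMA values (log2) of all 24 probe sets of the 8 genes, 1 panel a gene, with each of the 3 parental (circles) and 3 knockout (squares) arrays, the group means (lines) and the background level of 3.78 (dotted). Both Abcb1a probe sets and Abcb1b 1418872_at show separate groups with lower knockout values. Abcg2 1422906_at and 2 of the 10 Abcc5 probe sets show separate groups with slightly higher knockout values. The Abcc1, Abcc4 and Abca1 points of both lines intermingle.

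In the fit over all probe sets, 2 of the 24 member probe sets passed at an adjusted p under 0.05 (limma), both of Abcb1a and both lower; over all probe sets 0.402% passed, 0.333% lower and 0.0688% higher. The adjusted p was 0.000112 for 1419759_at and 0.000725 for 1419758_at. As the members were proposed with this contrast known, nothing is read from the count. Groups did not overlap for 3 member probe sets with lower knockout values, against 7.52% of all probe sets, and for 3 with higher knockout values, against 6.71%. The median difference over the 24 was 0.07, against 0.00 over all probe sets. Of the 24, 18 had a group mean above background, and the 6 others belonged to Abcc5 (4), Abcb1b (1) and Abca3 (1). The 20 probe sets of the other 6 genes ranged from -0.06 to 0.31, none passed, and 1 had an unadjusted p under 0.05 (limma), where 9.49% of all probe sets did. The probe set with that p was Abcc5 1459782_x_at, which lay below background on every array.

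**Figure D2:**
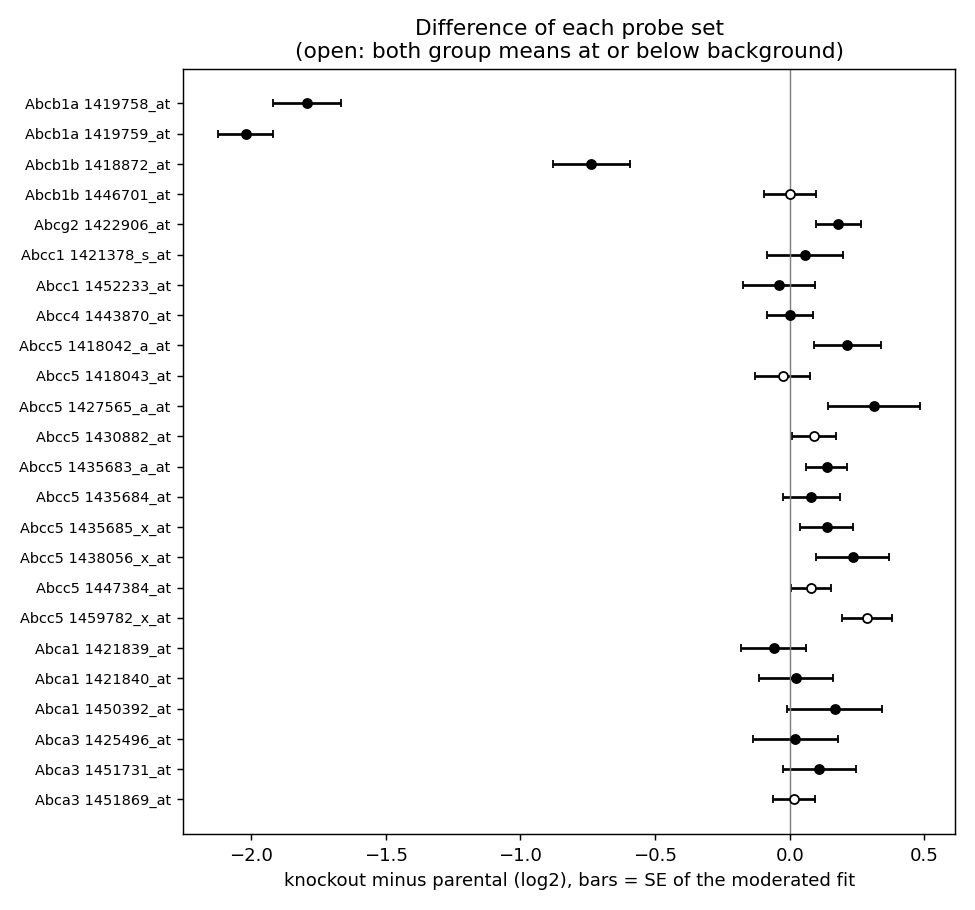
Knockout minus parental difference (log2) of each of the 24 probe sets, with the SE of the moderated fit; open points have both group means at or below background. Abcb1a stands at -2.02 and -1.79 and Abcb1b at -0.74, while the remaining 20 probe sets of the other genes lie between -0.06 and 0.31.

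Abcg2, the other major drug pump of stem cells, was not lower in the knockout. Its probe set 1422906_at read 9.11, 9.0 and 9.21 in parental and 9.22, 9.35 and 9.29 in knockout cells. The knockout arrays were all slightly higher, the closest pair of the groups differing in the second decimal only. The difference was 0.18 (SE 0.08), with means of 9.11 ± 0.10 and 9.29 ± 0.07 (SD, n = 3).

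The multidrug resistance protein genes gave differences near their array spread. Abcc1, which exports glutathione conjugates, read 9.02, 9.20 and 8.76 in parental and 9.02, 8.74 and 9.10 in knockout cells on 1452233_at, a difference of -0.04 (SE 0.13). On 1421378_s_at it read 6.96, 6.94 and 6.67 against 7.07, 6.61 and 7.06, a difference of 0.06 (SE 0.14). The groups overlapped on both, and parental replicate 3 and knockout replicate 2 were the low arrays of their groups on both. The same arrays were the low ones in the mean of 25 glutathione genes, with 6.48 for parental replicate 3 and 6.45 for knockout replicate 2 against 6.58 to 6.65 on the other 4 arrays; whether the array or culture had a part in this was not tested. Abcc4, an exporter of cyclic nucleotides and prostaglandins, read 8.04, 8.03 and 8.0 in parental cells. Its knockout values were 7.88, 8.06 and 8.13 (1443870_at), a difference of 0.00 (SE 0.09). The knockout values of Abcc4 lay on both sides of the tightly grouped parental ones.

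Abcc5, an exporter of cyclic nucleotides, had 10 probe sets, of which 9 were higher in knockout cells and none passed. The probe set 1418042_a_at read 8.05, 7.92 and 8.20 in parental and 8.18, 8.52 and 8.11 in knockout cells, a difference of 0.21 (SE 0.12). On 1427565_a_at the values were 6.14, 5.81 and 6.21 against 6.18, 6.75 and 6.17, a difference of 0.31 (SE 0.17). Knockout replicate 2 was the highest array on both and on 1438056_x_at (6.86), and the groups overlapped on all 3. Parental replicate 3 was the highest parental array on all 3 (6.56 on 1438056_x_at). These were the low arrays of their groups for Abcc1. Without knockout replicate 2 the difference of 1427565_a_at was 0.12 and that of 1418042_a_at 0.09. Without parental replicate 3 instead, they were 0.39 and 0.285. With the feeder marker mean as a covariate these were 0.81 and 0.48, and neither passed. On 1435683_a_at the knockout arrays were close together (7.11 to 7.16) and did not overlap the parental ones (6.90 to 7.05). The high reading of knockout replicate 2 was thus seen on 3 of the 6 probe sets above background. The 4 probe sets of Abcc5 at or below background included 1459782_x_at, which gave 0.29 (SE 0.09).

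The lipid transporters of the A subfamily gave no difference beyond the array spread. Abca1 read 8.02, 7.94 and 7.91 in parental and 8.31, 7.77 and 7.86 in knockout cells on 1421840_at, a difference of 0.02 (SE 0.14). Knockout replicate 1 was the high array there, and also on 1450392_at, where it read 4.51 against 3.76 to 3.99 on the other 5 arrays. The third probe set, 1421839_at, gave -0.06 (SE 0.12). Abca3 read 4.93, 5.32 and 4.82 against 5.27, 4.99 and 5.14 on 1451731_at, a difference of 0.11 (SE 0.14), and 0.02 (SE 0.16) on 1425496_at. The second of these, at 3.82 to 4.49, was close to background, and 1451869_at was below it on all arrays.

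The genes around the P-glycoprotein pair were set beside it. In the RefSeq gene order of chromosome 5, the window from 5 genes before Abcb1a to 5 genes after Abcb1b held 14 genes, of which 7 had a probe set. Slc25a40, a mitochondrial carrier gene, differed by 0.00 (SE 0.08), and Dbf4, the regulatory subunit of the Cdc7 kinase, by -0.04 (SE 0.08) on 1418334_at. Rundc3b, whose span overlaps that of Abcb1a, differed by -0.16 (SE 0.10, adjusted p = 0.695, limma). Abcb4, the phosphatidylcholine transporter gene next to Abcb1b and its close relative, read 5.0, 4.95 and 5.16 in parental and 5.08, 5.01 and 4.98 in knockout cells. The lines overlapped for Abcb4, with a difference of -0.01 (SE 0.08, adjusted p = 0.980). Crot, a peroxisomal carnitine acyltransferase gene, differed by 0.06 (SE 0.10) on 1450966_at. None of these 5 neighbours passed, at adjusted p of 0.695 or more over their 7 probe sets.

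**Figure D3:**
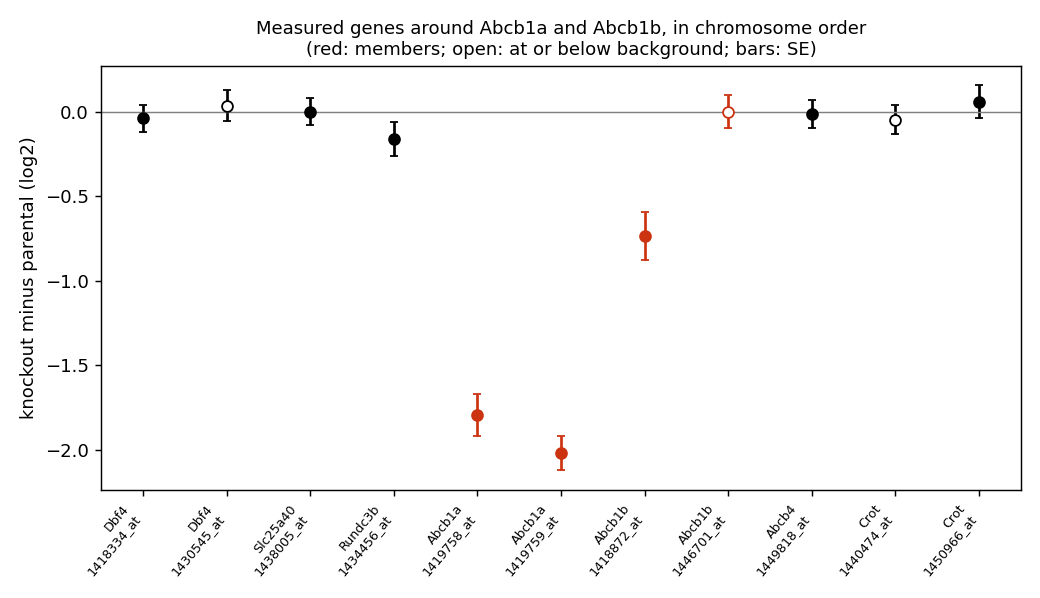
Knockout minus parental difference (log2, bars are SE) for each probe set of the measured genes around Abcb1a and Abcb1b, in chromosome order and not to scale of distance. The neighbours lie between -0.16 and 0.06, whereas Abcb1a is at -1.79 and -2.02 and Abcb1b at -0.74 and, on a probe set below background, 0.00.

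The rest of the ABC superfamily gives the wider view. With the 8 members left out, 40 ABC genes were measured, 23 of them above background, and each was read from its brightest single-gene probe set. Of the 40, 0 rose and 0 fell (limma, adjusted p), where 0.605% of all 18193 genes passed, 0.511% lower and 0.0934% higher. Without adjustment, 1 gene was higher and 1 was lower at p under 0.05, where 11.0% of all genes passed. These were Abcd3, a peroxisomal transporter of long-chain acyl-CoA (0.30, adjusted p = 0.222), and Abcg8, the subunit of the sterol exporter with Abcg5 (-0.30, from 4.95 to 4.65); Abcg8 was chosen after its value was seen. The median over the 40 was 0.01 and the range -0.30 to 0.30, against a median of 0.00 over all genes. Among those with the highest values, Abce1, which recycles ribosomes, differed by -0.05, and Abcf1 (0.04), Abcf2 (-0.15) and Abcf3 (0.12) belong with it to the ABC proteins that lack membrane domains. Abcb8, a mitochondrial inner membrane transporter, differed by 0.18. In the B subfamily, the other 8 genes ranged from -0.08 to 0.18, the antigen peptide transporter Tap1 (-0.08) and Tap2 (0.03) included.

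**Figure D4:**
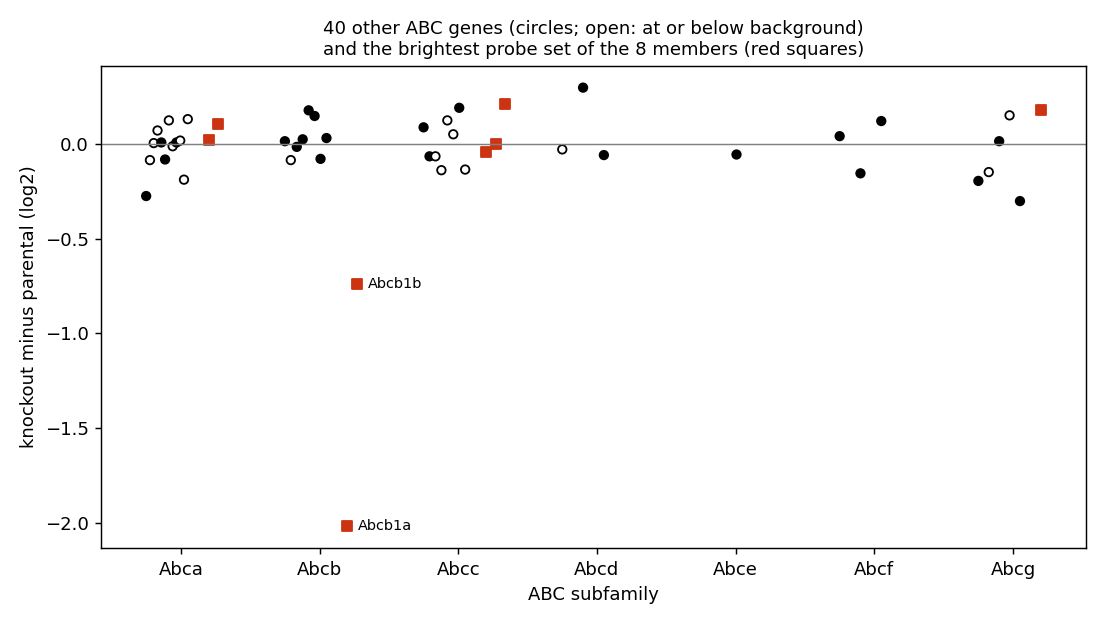
Knockout minus parental difference (log2) of 40 other ABC genes (circles, open where both group means are at or below background) and of the brightest probe set of each member (squares), by subfamily. The 40 genes lie between -0.30 and 0.30, with Abcb1a at -2.02 and Abcb1b at -0.74.

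Among partners of these pumps, single genes moved. A list of 42 drug and organic ion carrier genes held uptake carriers and also the exporter gene Slc47a1. Of the 42, 1 fell and 1 rose, and 40 did not pass (median 0.01), where 0.511% of all genes fell and 0.0934% rose. Without adjustment, 2 were lower and 5 higher at p under 0.05, where 11.0% of all genes passed in either direction. Slc47a1, the proton-coupled exporter of organic cations known as MATE1, fell from 4.76 ± 0.15 to 3.96 ± 0.12 (SD, n = 3), by 0.79 (SE 0.10, adjusted p = 0.0190, limma). The 2 groups did not overlap, and the knockout mean lay near background. The call of Slc47a1 was lost without parental replicate 1 (adjusted p = 0.0998) or 3 (0.0660), without knockout replicate 1 (0.102) or 2 (0.0745), and with the feeder marker mean as a covariate (0.474), the lowest over 12 alternatives being 0.0126. The difference itself was -0.86 to -0.72 without 1 array and -0.70 with the covariate. Slco4a1, an organic anion transporter, rose by 0.64 (adjusted p = 0.0390) on 1438160_x_at and gave 0.17 on its other probe set; the call was lost whichever single array was left out (0.0644 to 0.173). Of 25 glutathione genes 0 passed (limma), 4 being lower and 0 higher at an unadjusted p under 0.05, where 11.0% of all genes passed in either direction; those with the highest probe set values were Gsto1 (0.07) and Gsta4 (-0.12). Of 40 cyclic nucleotide enzymes, 1 rose, the cGMP phosphodiesterase gene Pde9a (0.71, adjusted p = 0.0391), a call lost without any 1 array (0.0568 to 0.173). Pde6d and Pde7b, with the highest probe set values, gave 0.03 and 0.14.

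Known regulators of ABC genes did not pass. Of 18 measured, 0 passed and 0 had an unadjusted p under 0.05 (limma), with a range of -0.13 to 0.17. Ybx1 (-0.05) and Ctnnb1 (-0.01), both described as activators of the human P-glycoprotein gene, had the highest probe set values. Nr1i2 and Nr1i3, the xenobiotic receptors PXR and CAR, were below background on all arrays. Of 16 lipid efflux partners 0 passed (limma), and 1 was higher at an unadjusted p under 0.05, where 11.0% of all genes passed in either direction. Npc2 gave 0.17 and Cav1 0.11. The summed linear signal of the 16 was 7964 to 8569 in parental and 8603 to 9417 in knockout arrays.

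The values that follow Abcb1a most closely were sought among 327 genes whose arrays differ by at least 1 on the log2 scale. By Pearson r over the 6 arrays with 1419759_at, they were Ttpa (0.997), 1700029P11Rik (0.994), Dppa4 (0.994), Aard (0.994) and Usp17la (0.992), with Spearman rho of 0.899, 0.883, 0.841, 0.771 and 0.943. The arrays form 2 clusters, the lines, so these r mainly restate the gap between the lines. Ttpa, the tocopherol transfer protein gene, read 7.32, 7.32 and 7.43 in parental and 6.0, 5.91 and 5.86 in knockout cells. Dppa4 read 10.30, 10.35 and 10.45 against 8.68, 8.84 and 8.68, lower in the line labelled knockout. Whether that probe set covers the deleted exons is unknown here, so its signal checks the labels by direction only.

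Cell type markers were read beside these results. The 10 ES cell markers had a mean of 10.85 ± 0.05 in parental and 10.79 ± 0.01 in knockout cells (SD, n = 3), and 0 of 10 passed (limma). At an unadjusted p under 0.05, 1 was lower, Nanog (-0.49, adjusted p = 0.122), and for 4 of the 10 every knockout array was below every parental one, where 7.52% of all probe sets were. These 4 were Nanog, Esrrb (-0.18), Sox2 (-0.08) and Pou5f1 (-0.06). For 1, Dppa5a (0.08), every knockout array was above every parental one, where 6.71% of all probe sets were. The 13 measured feeder fibroblast markers had a summed linear signal of 29030 to 31300 in parental and 32990 to 33730 in knockout arrays, and 0 passed (limma; 2 higher at an unadjusted p under 0.05). Their mean log2 values overlapped between the lines, at 10.49 to 10.65 and 10.64 to 10.77. The group averages were 10.57 in parental and 10.71 in knockout cells, so this mean as a covariate shares part of the line difference. Over all probe sets, 181 calls became 19 with it, and a call lost there is not read as a sign of feeder content. With the feeder marker mean as a covariate, Abcb1a differed by -2.04 (adjusted p = 0.0154, limma) and -1.96 (0.0457), the highest adjusted p of each over 12 alternatives, and Abcb1b by -0.71. P-glycoprotein is abundant in endothelial cells of the blood-brain barrier, and an endothelial marker moved with the lines. Of 7 such markers, 1 fell, the angiopoietin receptor gene Tek, from 5.98 ± 0.18 to 4.42 ± 0.29 (SD, n = 3; -1.56, adjusted p = 0.00469, limma), a call lost with the feeder covariate (0.266, in a range of 0.00116 to 0.266 over 12 alternatives), although the difference remained -1.54. The summed signal of the 7 was 159.2 to 184.5 in parental and 107.4 to 125.7 in knockout arrays, and without Tek it was 101.9 to 112 and 89.6 to 99.4. Of the 7, Cdh5, Emcn and Tie1 were below background on all 6 arrays, while Kdr (-0.23, adjusted p = 0.593), Plvap (0.07, adjusted p = 0.901) and Vwf (-0.66, adjusted p = 0.235) were above it in at least one line. At an unadjusted p under 0.05 (limma), 2 of the 7 were lower, Tek and Vwf, and 0 higher, where 11.0% of all genes passed in either direction. For these 2, every knockout array was below every parental one. The part of endothelial cells in the Abcb1a difference was not tested. Of 7 macrophage, 8 endoderm and 7 trophoblast markers 0 passed (limma), with 0 at an unadjusted p under 0.05, and the summed signals of the lines overlapped for each (392.5 to 523.6 and 487.9 to 555.8 for macrophages, 328.1 to 396.2 and 364.1 to 474.4 for endoderm, 144 to 163 and 146.9 to 167.4 for trophoblast).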

How the data were processed

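The authors deposited 1 table of log2 values per probe set and array, made with RMA per the submitters' processing notes; which program and settings were used is not given in the sources used here. The log2 scale was read from the values. Because RMA equalises the distributions of arrays, a shift common to most transcripts would be hidden; array medians were 4.21 to 4.25 and array pairs correlated at 0.994 to 0.997. Precision is limited by the number of arrays.

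Of 45101 probe sets, 64 controls were left out. Symbols come from the platform annotation, and gene order from RefSeq (GRCm38.p6). The lines were tested against each other with lmFit and eBayes of limma 3.58.1, R 4.3.3 (two-sided, no covariate), adjusted by Benjamini-Hochberg over 45037 probe sets, at 0.05. The fit was tested on simulated data with independent noise of the same SD for every probe set. That run cannot show how the fit performs on noise shared between arrays. Background is the 95th percentile of 80 receptor probe sets. Genes outside the members were read from the probe set with the highest mean among those with 1 gene. The labels do not say that replicates were separate cultures, so p-values reflect only the spread among these arrays, which may be technical. With 3 against 3 arrays an exact two-sided test cannot go below 0.1.

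The members and lists were chosen with earlier results of these data known. Named are all members, genes of each list that passed with those of the highest mean value, genes next to the P-glycoprotein pair, and the 5 that follow Abcb1a. Some further genes were named outside this rule. They were Abcg5, Abcg8, Tap1, Tap2, Nr1i2, Nr1i3, Nanog, Esrrb, Sox2 and the endothelial markers other than Tek and Plvap. Same-numbered replicates did not vary together (r of 0.112, -0.364 and -0.287). Arrays with different numbers were not compared in this way. In the mean of the glutathione genes, parental replicate 3 was close to knockout replicate 2 (6.48 and 6.45). Parental replicate 2 was close to knockout replicate 3 there (6.65 and 6.64). The fit takes no account of such a likeness, and its source was not tested. No 2 arrays held the same values.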

Additional observations from a re-analysis of the deposited data

How the results depend on the processing

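Settings tried were a second quantile normalization, subtraction of each array's median, a replicate block, a trended robust variance prior, a test restricted to probe sets over background, omission of each array and, chosen after seeing the data, the feeder marker mean as a covariate. Abcb1a 1419759_at ranged from -2.08 to -1.91 and 1419758_at from -1.96 to -1.67, and both passed under all 12 (limma); without 1 array 1419759_at was -2.08 to -1.91. The count of member probe sets passing was 2 throughout (2 to 2 without 1 array) except 3 with the trended prior, which added Abcb1b 1418872_at. The other 21 member probe sets gave 246 values, of which 0 passed; 11 member values, all with the feeder marker mean, moved by more than the SD of the arrays, among them Abcc1 1452233_at to -0.32, Abca1 1450392_at from 0.17 to -0.18 and Abca3 1451731_at from 0.11 to -0.26. The 181 probe sets called over the whole table became 88 with the replicate block, 312 with the trended prior, between 70 and 112 without 1 array, and 19 with the feeder marker mean. With the replicate block, the Abcb1a differences were the same, the calls of Slco4a1 (adjusted p = 0.183) and Pde9a (0.0595) were lost, and no other gene named as risen or fallen lost its call; the replicate numbers do not pair the samples, so a call lost there is not read as a weaker effect. No other ABC gene passed under any of these or as the mean of all its probe sets (0, and 0 to 0 without 1 array).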
